A study of Mus musculus with 11 samples.

Results

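10 genes that are read as marks of activated microglia or of macrophages at the brain's borders were followed through single-nucleus RNA profiles of mouse brain. They are Trem2, Tyrobp, Aif1, Cd68, Lyz2, Apoe, B2m, Mrc1, F13a1 and Cd163, taken by symbol from the deposited gene list, and all 10 of 10 were found among its 25938 symbols. The question was whether any of them differed between dosing groups within the nuclei that the authors' annotation names Microglia (1175 of 110304 nuclei) or Perivascular macrophages (125 nuclei). In microglia 8 members reached the minimum count for a test, 5 of them also without the dosing group in which they were most counted. In perivascular macrophages 4 members reached it. None of these passed the test in any comparison of dosing groups. Over all genes tested only 0.0105 to 0.189% were called per comparison in microglia and 0 to 0.0603% in perivascular macrophages, so a count of 0 among so few members does not set them apart from other genes. Trem2 was highest in microglia, and Lyz2, Mrc1, F13a1 and Cd163 in perivascular macrophages. Tyrobp, Aif1 and Cd68 were found in both, at levels within counting error of each other, and Apoe and B2m were highest in other classes.

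All mice carried a human transferrin receptor (TfR) knock-in, labelled hTfR KI HOM. They were given 4 weekly intravenous doses and the tissue was frozen 72 h after the last one. The control article ATV:BACE1 binds the TfR and has no antisense oligonucleotide (ASO); its label gives 57 mg/kg (n = 3). Its name also holds BACE1, and no vehicle group is among the samples. Comparisons with it therefore cannot tell the ASO apart from what else differs between the articles. OTV:Malat1 joins a TfR-binding carrier to an ASO against the nuclear RNA Malat1 and was given at 60 mg/kg (n = 3). The group labelled nonTV:Malat1, titled RSV-ASO, received 60 mg/kg of the ASO joined to a carrier without the TfR-binding part (n = 3). The group labelled Malat1 ASO received the oligonucleotide alone at 2.5 mg/kg (n = 2). Replicate 1 was female and 2.33 months old, replicate 4 male and 2.57 months, and replicate 5 male and 2.33 months. Each number is 1 deposited batch, so the batch cannot be told apart from the sex and age of its mice. Sample labels give the region as posterior and the strain as a human TfR knock-in, while the per-nucleus table gives cortex and C57BL/6J.

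Microglia are the resident macrophages of the brain tissue, and perivascular macrophages sit around its vessels. TREM2 is a lipid-sensing receptor on microglia that signals through the adaptor TYROBP, and in mouse models of neurodegeneration its signalling accompanies a state with high Apoe, Cd68, Lyz2 and B2m and low homeostatic genes. MRC1 (a mannose receptor), F13A1 (a clotting factor subunit) and CD163 (a haemoglobin scavenger receptor) are textbook marks of border macrophages. AIF1, also called IBA1, is the common histological mark of both cell types. Nuclear RNA holds newly made and retained transcripts.

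The 10 genes lie on 7 chromosomes of the mouse genome (mm10, the build named in the submitters' processing notes; positions from GENCODE M21 on GRCm38). Trem2 spans chr17:48346401-48354147 on the plus strand and Aif1 chr17:35170991-35176068 on the minus strand. Apoe (chr7:19696109-19699188, minus strand) and Tyrobp (chr7:30413760-30417585, plus strand) share a chromosome, as do B2m (chr2:122147686-122153083) and Mrc1 (chr2:14229392-14332057), both on the plus strand. Cd68 lies at chr11:69664213-69666153 (minus), Lyz2 at chr10:117277331-117282321 (minus), F13a1 at chr13:36867178-37050244 (minus) and Cd163 at chr6:124304656-124330527 (plus). The 7 members from Trem2 to B2m that are known from microglial activation span 1.94 to 7.75 kb each, while Cd163 spans 25.9 kb, Mrc1 103 kb and F13a1 183 kb. 3 members overlap another annotated gene: B2m overlaps Patl2 on the other strand, Mrc1 holds the microRNA gene Mir511 on its own strand, and F13a1 overlaps Gm49144 and Gm30489 on the other strand. Lyz2 has a near-identical neighbour, Lyz1. How the authors' counting treated these is not given in the sources used here, so those 4 genes carry that uncertainty.

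Promoter windows were available for 9 of the 10 members (RefSeq, GRCm38.p6, 250 bases before to 50 after an annotated start, 12 windows in all). Those of 4 members are printed here. Trem2 is highest in microglia, Mrc1 and F13a1 in perivascular macrophages and B2m in vascular endothelium. Whether windows and levels go together was not tested. Capitals mark matches on either strand to GAGGAA (reverse complement TTCCTC), the core of the PU.1 box, PU.1 being a factor that directs macrophage development, or to the core of the interferon-stimulated response element, a GAAA followed after any 2 bases by another GAAA (TTTC and TTTC on the other strand). Neither motif holds the other. Each is given on the gene's strand: Trem2 from chr17:48346151-48346450 (plus), Mrc1 from chr2:14229164-14229463 (plus), F13a1 from chr13:37050195-37050494 (minus, the outer of its starts) and B2m from chr2:122147437-122147736 (plus).
Trem2: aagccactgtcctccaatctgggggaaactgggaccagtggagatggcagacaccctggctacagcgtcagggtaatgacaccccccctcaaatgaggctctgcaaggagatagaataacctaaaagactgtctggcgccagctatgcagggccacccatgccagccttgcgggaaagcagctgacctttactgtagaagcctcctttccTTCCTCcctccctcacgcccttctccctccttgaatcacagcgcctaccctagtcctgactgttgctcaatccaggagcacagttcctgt
Mrc1: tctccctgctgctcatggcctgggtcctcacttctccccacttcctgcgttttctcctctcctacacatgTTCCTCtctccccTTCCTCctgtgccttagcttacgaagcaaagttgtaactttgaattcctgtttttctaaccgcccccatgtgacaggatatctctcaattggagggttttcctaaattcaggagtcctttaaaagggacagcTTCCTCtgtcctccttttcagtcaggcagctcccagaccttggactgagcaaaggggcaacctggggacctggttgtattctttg
F13a1: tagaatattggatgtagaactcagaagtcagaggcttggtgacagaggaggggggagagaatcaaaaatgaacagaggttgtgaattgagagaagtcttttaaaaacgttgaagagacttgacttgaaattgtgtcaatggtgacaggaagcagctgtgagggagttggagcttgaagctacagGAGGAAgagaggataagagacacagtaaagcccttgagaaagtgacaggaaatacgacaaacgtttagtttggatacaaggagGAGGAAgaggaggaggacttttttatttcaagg
B2m: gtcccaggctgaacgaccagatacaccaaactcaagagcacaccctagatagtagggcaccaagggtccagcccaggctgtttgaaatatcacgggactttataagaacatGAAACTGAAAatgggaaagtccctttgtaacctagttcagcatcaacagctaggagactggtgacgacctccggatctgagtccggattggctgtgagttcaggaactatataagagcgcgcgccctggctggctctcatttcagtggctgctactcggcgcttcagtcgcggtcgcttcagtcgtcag

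The PU.1 core stood in 8 of the 12 windows (6 of the 9 members) and in 28.3% of all 32851 mouse windows. Mrc1 held 3 matches and the printed F13a1 window 2, Trem2 held 1, and the Cd163 and Lyz2 windows none. The interferon core was in the windows of 2 members, B2m and Aif1, and in 3.44% of all windows. A match describes the letters only.

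The 11 libraries held 33235994 to 43972886 UMIs (unique transcript counts) in 7546 to 13840 nuclei each. Microglia numbered 60 to 202 per library with a median of 883 UMIs per nucleus, and perivascular macrophages 5 to 21 with a median of 866, against 3926 UMIs in neurons. Both names held against the sums of their markers. All 12 microglial markers had UMIs in microglia, where they summed to 4646 to 6978 CPM over the libraries (the gene's UMIs per 1000000 UMIs of the class in that library), against 1639 to 2795 CPM in perivascular macrophages. Not each marker went this way. Pooled, C1qa, C1qb and C1qc stood at 188, 202 and 224 CPM in perivascular macrophages against 154, 186 and 188 in microglia. The other microglial markers were lower in perivascular macrophages. Among these, Csf1r was close (526 against 574 CPM), and P2ry12 (382 against 817) and Siglech (267 against 929) were still present. The 9 markers of perivascular macrophages summed to 4568 to 11337 CPM there and to 55.8 to 380 CPM in microglia, where Pf4 and Cbr2 were at 0. They include the members Mrc1, F13a1 and Cd163, which gave most of that sum, so for these the check is not separate from the levels below. The markers that are not members also stood higher there, pooled: Stab1 at 1334 against 139 CPM, Ms4a7 at 339 against 3.88 and Cbr2 at 130 against 0. Lyve1, Pf4 and Siglec1 gave 7, 5 and 5 UMIs. Transcripts of other cells were present in microglia: 5 neuronal markers summed to 921 to 2234 CPM and 5 oligodendrocyte markers to 1386 to 3216 CPM, while 8 markers of monocytes, neutrophils and lymphocytes summed to 0 to 46.6 CPM, with Ly6c2, S100a8, Cd3e and Cd79a at 0. The neuronal markers ranged from 1740 to 2005 CPM in ATV:BACE1 microglia, 1261 to 2234 in OTV:Malat1, 1040 to 1541 in nonTV:Malat1 and 921 to 2021 in Malat1 ASO. In perivascular macrophages they summed to 679 to 3314 CPM. Their part in the results below was not tested. The authors' cluster 7 held 1163 of the 1175 microglia and 117 of the 125 perivascular macrophages, and 3011 nuclei (2.73%) had a barcode also seen in another library, 22 of them microglia and 5 perivascular macrophages.

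Malat1, the targeted RNA, checked the group labels within microglia. The control libraries ATV:BACE1 (given throughout in the order of replicates 1, 4 and 5) held 46710, 57795 and 60980 CPM, and OTV:Malat1 held 29044, 28245 and 31705 CPM. The groups did not overlap, and the log2 ratios of same-numbered libraries were -0.69, -1.03 and -0.94. The nonTV:Malat1 libraries read 41386, 49165 and 54498 CPM and the Malat1 ASO libraries 51846 and 57271 CPM, both within or next to the control range. Against the same-numbered control the log2 ratios were -0.17, -0.23 and -0.16 for nonTV:Malat1, each lower. For Malat1 ASO they were 0.15 and -0.09. Malat1 fell by 0.90 on the log2 scale in OTV:Malat1 microglia (SE 0.14, adjusted p = 8.83e-06, edgeR's quasi-likelihood test with replicate block). Without the block the change was -0.91 with an adjusted p of 0.665 (edgeR), so the call was made with the block and not without it. In perivascular macrophages Malat1 read 31332, 28063 and 46392 CPM in OTV:Malat1 against 44634, 52805 and 60071 in the control; the log2 change of -0.59 (SE 0.27) did not pass (adjusted p = 1.00, edgeR).

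Levels of the 10 genes over the deposited classes are given as a description, since the classes were themselves drawn from expression. Trem2 stood highest in microglia, at 95.3 ± 32.2 CPM (mean and SD over 11 libraries, from 51.1 to 149). The next class, perivascular macrophages, gave 5 UMIs in all (36.1 CPM pooled, 0 in 7 of the 11 libraries), and oligodendrocytes gave 5.45 ± 2.00 CPM. Microglia exceeded oligodendrocytes 17.0-fold in pooled CPM (95% interval from counting error only, 12.9 to 22.5). Tyrobp, its adaptor, was at 88.7 ± 30.1 CPM in microglia, 13.8 times the oligodendrocyte level (10.6 to 18.1), and at 99.6 ± 130 CPM in perivascular macrophages, which do not differ from microglia beyond that spread. Thinned to 500 UMIs per nucleus (3 shallower nuclei left out of the series), 4.77% of microglia held Trem2 against 0.265% of oligodendrocytes (9.96% and 0.601% unthinned), and 4.00% against 0.342% held Tyrobp. Trem2 was found in 117 of the 1175 microglia and Tyrobp in 110, and 16 nuclei held both.

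Aif1 and Cd68 (a lysosomal membrane protein of phagocytes) were also found in both classes, at far fewer counts. Aif1 gave 26 UMIs in microglia (18.2 ± 11.1 CPM, 20.2 pooled) and 4 in the far fewer perivascular macrophages (41.0 ± 71.5 CPM, 28.8 pooled), a pooled ratio of macrophages to microglia of 1.43 (0.362 to 4.12). Cd68 gave 22 UMIs in microglia (15.3 ± 12.1 CPM, 17.1 pooled) and 4 in perivascular macrophages (45.9 ± 94.1 CPM, 28.8 pooled), a ratio of 1.69 (0.423 to 4.97). Both intervals, from counting error only, include 1. Microglia exceeded oligodendrocytes 7.55-fold for Aif1 (4.46 to 12.5) and 7.60-fold for Cd68 (4.27 to 13.2). Lyz2, which codes for lysozyme of phagocytes, was a macrophage gene here: it stood at 121 ± 109 CPM in perivascular macrophages with 17 UMIs and at 3.98 ± 5.67 CPM in microglia with 6. Its microglial level was 2.40 times that of oligodendrocytes with a counting interval from 0.819 to 5.81, so no microglial Lyz2 signal above that class was detectable at this depth.

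Mrc1, F13a1 and Cd163 were led by perivascular macrophages by a wide margin. Mrc1 stood at 2452 ± 973 CPM there, F13a1 at 3244 ± 879 CPM and Cd163 at 421 ± 172 CPM, and in each of the 11 libraries all 3 were detected. Their pooled levels exceeded those of microglia 63.7-fold (47.2 to 87.5), 96.6-fold (70.8 to 135) and 89.8-fold (38.8 to 255). After the same thinning, F13a1 was seen in 81.6% of perivascular macrophages, Mrc1 in 73.6% and Cd163 in 16.8%, against 0.936%, 1.36% and 0.255% of microglia and 0.0768%, 0.0698% and 0.00698% of oligodendrocytes. Unthinned, the shares were 90.4%, 89.6% and 30.4% in perivascular macrophages. Mrc1 and F13a1 were found together in 101 of the 125 nuclei, out of 112 with Mrc1 and 113 with F13a1. With each gene in most nuclei, this overlap cannot show whether they go together.

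**Figure D1:**
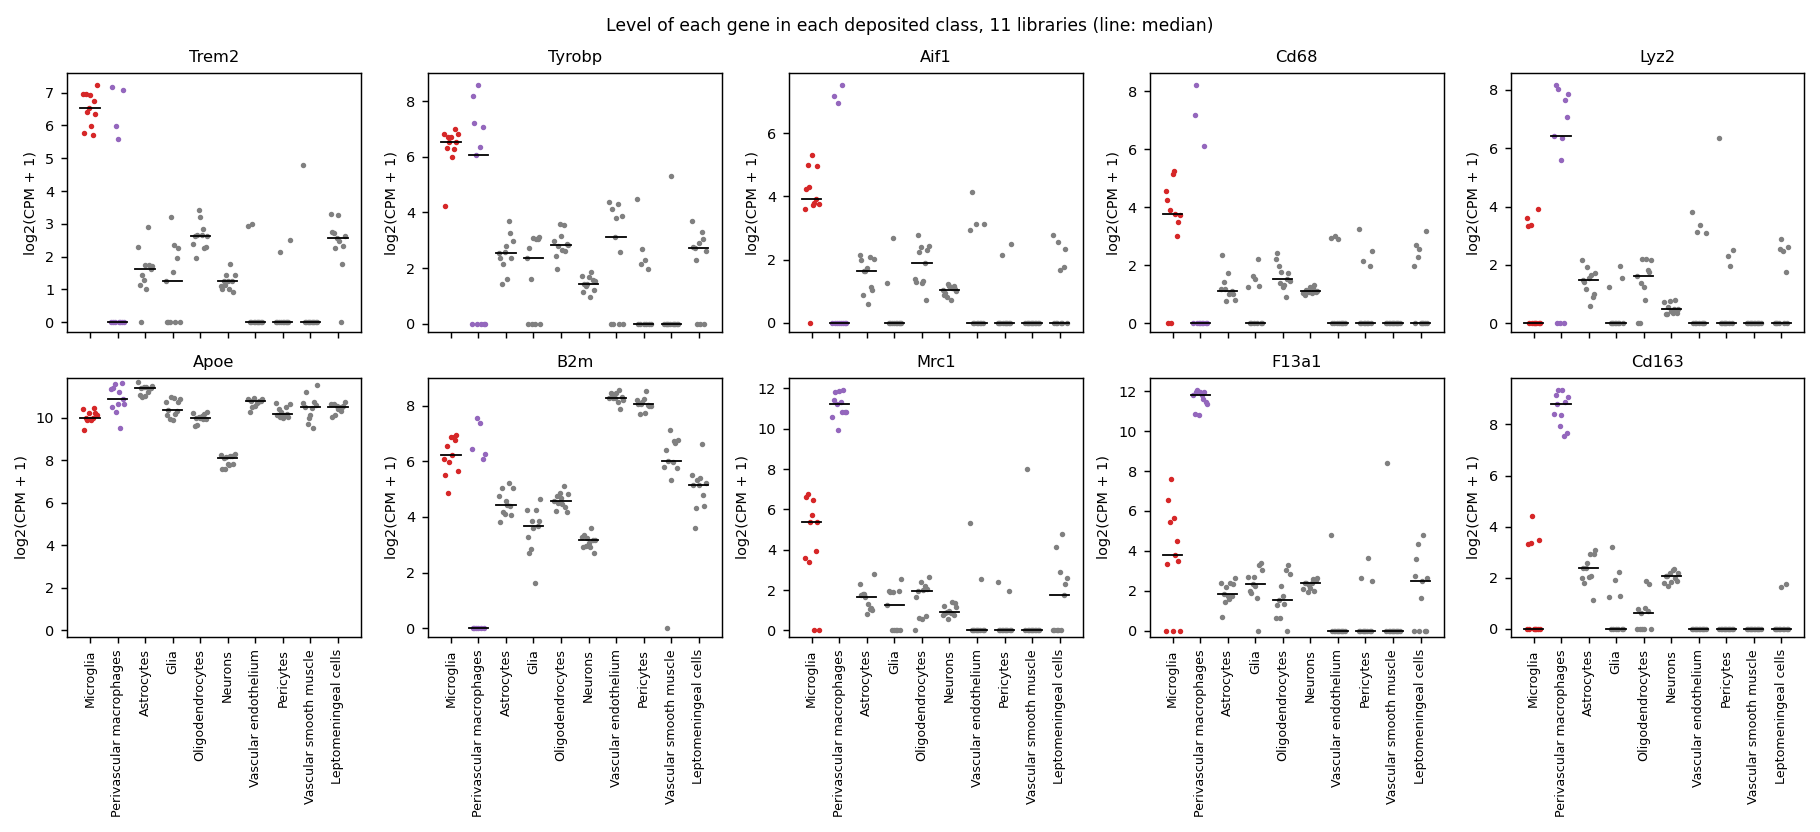
Level of each gene, as log2(CPM + 1), in each of the 10 deposited classes; each point is 1 of 11 libraries and the line is their median, with microglia in red and perivascular macrophages in purple. Trem2 stands highest in microglia, Tyrobp in microglia and perivascular macrophages, Mrc1, F13a1 and Cd163 in perivascular macrophages, Apoe in all classes with astrocytes at the top, and B2m in endothelium and pericytes; points at 0 are libraries without a UMI.

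Apoe, a lipid carrier made mainly by astrocytes, was the most broadly found member. Astrocytes led at 2559 ± 379 CPM, followed by perivascular macrophages (2025 ± 788), vascular endothelium (1669 ± 205), vascular smooth muscle (1512 ± 648), the class named Glia (1447 ± 403), leptomeningeal cells (1413 ± 211), pericytes (1246 ± 224), microglia (1072 ± 204), oligodendrocytes (1023 ± 139) and neurons (254 ± 47.0). Neighbours in this order differed by less than the larger of their SDs down to oligodendrocytes, and neurons stood apart. Microglia held 1.04 times the CPM of oligodendrocytes (0.980 to 1.10). Counted per nucleus, Apoe was nearly the same in microglia (1.16 UMIs), oligodendrocytes (1.17) and neurons (1.20), although neurons were far deeper, and higher in astrocytes (4.23). For Trem2 the same count per nucleus was 15.9 times higher in microglia than in neurons. Apoe was seen in 45.5% of microglia and 43.3% of oligodendrocytes thinned to 500 UMIs (66.0% and 66.3% unthinned, at median depths of 883 and 947 UMIs). By this measure the microglial Apoe signal was not above that in a class not known for high Apoe; RNA free in the suspension was not measured.

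B2m, the light chain of MHC class I, was led by vascular endothelium (315 ± 39.1 CPM) and pericytes (267 ± 42.8 CPM), whose means differ by more than either SD while the libraries' ranges overlap (235 to 379 and 207 to 363 CPM). Microglia followed at 79.8 ± 32.4 CPM, close to vascular smooth muscle (73.4 ± 38.5) and perivascular macrophages (52.4 ± 69.4, 8 UMIs in all), and above oligodendrocytes (23.6 ± 4.95), astrocytes (22.9 ± 7.70) and neurons (7.83 ± 1.54). The pooled microglial level was 3.39 times that of oligodendrocytes (2.70 to 4.23).

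Because microglia made up 1.07% of the nuclei, they held a small part of every member's UMIs. Of the 804 Trem2 UMIs in the series 15.4% were in microglia and 62.8% in nuclei named neurons, and of the 1055 Tyrobp UMIs 11.3% and 60.8%. The microglial part was 5.20% for Aif1, 4.10% for Cd68, 2.06% for B2m and 0.755% for Apoe. Perivascular macrophages, 0.113% of the nuclei, held 39.4% of the 870 Mrc1 UMIs, 21.9% of the 2090 F13a1 UMIs and 4.51% of the 1287 Cd163 UMIs. A sum over all nuclei therefore takes over 50% of the Trem2 and Tyrobp UMIs from nuclei named neurons.

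The Cd163 UMIs in neurons were not spread evenly. Of 1119 such UMIs, 881 (78.7%) lay in the authors' cluster 2, where Cd163 stood at 11.2 CPM over 14713 neurons and between 7.11 and 14.7 CPM in each of the 11 libraries. It was at 0.958 CPM in cluster 0 and 0.257 CPM in cluster 1, the other large neuronal clusters. A UMI was found in 5.59% of cluster 2 neurons (median depth 4472 UMIs) and in 0.460% of cluster 0 neurons (4401 UMIs). Gad1 and Gad2, the enzymes of GABA synthesis, were at 104 and 135 CPM in cluster 2, at 117 and 155 CPM in cluster 1 and at 20.2 and 24.3 CPM in cluster 0. The 458 nuclei named neurons in cluster 7, the cluster of the microglia, carried F13a1 at 62.6 CPM, Mrc1 at 27.3 CPM and Trem2 at 19.2 CPM, against 3.12, 0.749 and 1.43 CPM in cluster 0.

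Within microglia, Mrc1, F13a1 and Cd163 came from few nuclei. Of the 1175 nuclei 1143 (97.3%) held none of the 3, while 15 nuclei (1.28%) held at least 3 UMIs of them and together 79 of their 100 UMIs. Class prediction scores of those 15 ran from 0.390 to 0.923 with a median of 0.628, against a median of 0.927 over all microglia. Of the 15, 14 lay in cluster 7 and none was a called doublet. They held 1 of the 124 Trem2 UMIs in microglia, too few nuclei to compare. By the same count 108 of the 125 perivascular macrophages (86.4%) held at least 3. In OTV:Malat1 replicate 1, 1 nucleus gave 11 of the 12 microglial Mrc1 UMIs, and in Malat1 ASO replicate 5, 3 nuclei gave 18 of the 19 F13a1 UMIs. Levels of these genes in the microglia of a library therefore depend on a handful of nuclei.

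**Figure D2:**
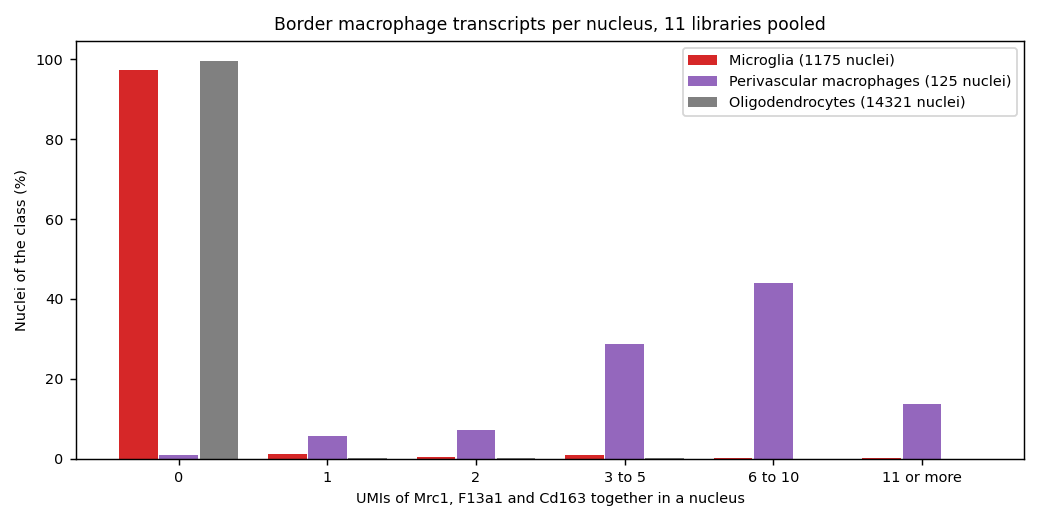
Share of nuclei (%) by the number of UMIs of Mrc1, F13a1 and Cd163 together, for microglia, perivascular macrophages and oligodendrocytes, with the 11 libraries pooled. Microglia and oligodendrocytes sit at 0 UMIs in 97.3% and 99.7% of nuclei, while 86.4% of perivascular macrophages hold 3 or more.

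In likeness of pattern over the 10 classes (Pearson's r of log2(CPM + 1), as a description over 10 points that share the libraries), Trem2 was followed most closely by Tbc1d23 (r = 0.99), Gm2629 (0.98) and Tubgcp5 (0.98). These differ in scale: Gm2629 was at 525 CPM in microglia and 2.11 in neurons, Tbc1d23 at 179 and 85.5. F13a1 was the gene most like Mrc1 (r = 0.98), followed by Vta1 (0.97) and Uchl5 (0.97). Ptms, Trir and Tmem50a were most like B2m (r = 0.98 each), and Mmut (0.95), 1810013L24Rik (0.92) and Son (0.91) most like Apoe, from 16736 genes with at least 500 UMIs.

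Dosing groups were compared first in microglia, with OTV:Malat1 against ATV:BACE1. Trem2 was at 123, 53.9 and 124 CPM in the control (11, 6 and 8 UMIs), and at 120, 61.9 and 51.1 CPM in OTV:Malat1 (28, 5 and 4 UMIs). The ranges overlapped throughout, and the log2 change of -0.20 (SE 0.42) had a 95% interval from -1.03 to 0.64; within numbers 1, 4 and 5 the log2 ratios were -0.03, 0.20 and -1.28. Tyrobp read 112, 18.0 and 77.7 CPM in the control and 103, 61.9 and 76.6 CPM in OTV:Malat1, the latter inside the control range, for a log2 change of 0.28 (SE 0.47, interval -0.64 to 1.20). Apoe read 1372, 683 and 995 CPM in the control and 982, 941 and 1021 CPM in OTV:Malat1, again inside the control range. Its log2 change of -0.04 (SE 0.20) had the narrowest interval of the members tested in this comparison, from -0.43 to 0.34, and the ratios within numbers were -0.48, 0.46 and 0.04.

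B2m was at 66.9, 44.9 and 93.2 CPM in control microglia (6, 5 and 6 UMIs) and at 116, 74.3 and 115 CPM in OTV:Malat1 (27, 6 and 9 UMIs), higher in 3 of 3 same-numbered pairs while the ranges overlapped. The log2 change was 0.67 (SE 0.45, interval -0.22 to 1.57), with ratios within numbers of 0.79, 0.72 and 0.30. Cd68 rested on 2, 2 and 0 UMIs in the control and 8, 3 and 1 in OTV:Malat1, and Aif1 on 1, 2 and 2 against 9, 1 and 1; their intervals ran from -1.01 to 2.97 and from -1.50 to 2.28. Both reached the minimum of 20 UMIs for a test only through OTV:Malat1, which held 12 of the 22 Cd68 UMIs and 11 of the 26 Aif1 UMIs, so their changes here are a description. Mrc1 (11.2, 98.9 and 109 CPM against 51.5, 86.6 and 0) changed by -0.28 (SE 0.56) and F13a1 (0, 8.99 and 93.2 CPM against 0, 49.5 and 12.8) by -0.66 (SE 0.94). Lyz2 and Cd163, with 6 UMIs each in all microglia, were under that minimum; neither had a UMI in OTV:Malat1 microglia, which over the group allows up to 7.65 CPM (3 counts).

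None of the 8 members tested was called in that comparison with edgeR (0 at an unadjusted p under 0.05), and none with DESeq2; over all 9507 genes tested 0.0421% were called. Of the 8, 5 held 20 UMIs without the dosing group in which they had most, and Cd68, Aif1 and F13a1 did not (as for 1845 of the 9507 genes). As a description of the 8, their median log2 change was 0.12, with 4 higher and 4 lower, beside a median of 0.02 over all genes. Against the spread between libraries, a change of Apoe beyond 0.43 lower or 0.34 higher on the log2 scale lies outside the interval; for the other members changes of 2-fold in at least 1 direction lie inside it.

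Genes other than Malat1 and the members were called in microglia, 22 of them over the 5 comparisons. Of the 22, 17 had a higher CPM in neurons than in microglia, while the share of all tested genes that did was not counted. The calls, Malat1 included, depended on the fit: without the replicate block they went from 4 to 0 for OTV:Malat1 against ATV:BACE1, from 18 to 0 for nonTV:Malat1 and from 12 to 0 between these groups. DESeq2 with the block called 1, 0 and 1. The 22 include 3 genes that reached the minimum only through 1 group: Grm8, Lnx2 (17 of 31 UMIs in nonTV:Malat1) and Fndc3c1 (all 30 UMIs in nonTV:Malat1 replicate 4), the latter pair named after their values were seen. Against ATV:BACE1, OTV:Malat1 was lower for Asic2 (-1.95, SE 0.33), Tenm3 (-2.07, SE 0.42) and Grm8 (-3.22, SE 0.68; 30 of its 48 UMIs lay in ATV:BACE1, without which it is under the minimum), and Malat1 ASO for Asic2 (-2.85, SE 0.48). Asic2, an ion channel of neurons, stood at 1739 CPM in neurons and 148 in microglia, and 87 of its 190 microglial UMIs lay in ATV:BACE1 replicate 4. In nonTV:Malat1 the genes of lowest p were Col25a1 (3.398), Il1rapl2 (3.49), Ntm (-1.81), Lsamp (-1.20) and Mgat4c (-2.85), and 101 of the 144 Col25a1 UMIs and 58 of the 86 Il1rapl2 UMIs lay in nonTV:Malat1 replicate 4. Between OTV:Malat1 and nonTV:Malat1 they were Col25a1 (-2.86), Ttr (-0.96), Il1rapl2 (-2.36), Lhfpl3 (1.54) and mt-Co1 (-1.65). In perivascular macrophages Lsamp was called in nonTV:Malat1 (2.49), Pcdh15 between OTV:Malat1 and nonTV:Malat1 (-5.53, on 30 of 35 UMIs in nonTV:Malat1, without which it is under the minimum) and Nrg1 between OTV:Malat1 and Malat1 ASO (4.11). Without the block those 3 comparisons gave 0, 1 and 0 calls, and DESeq2 gave 0 in each.

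The other dosing groups gave the same count of 0 called members in microglia. For nonTV:Malat1 against ATV:BACE1, where 0.189% of genes were called, Mrc1 read 14.2, 40.6 and 0 CPM against 11.2, 98.9 and 109, overlapping ranges, for a log2 change of -1.74 (SE 0.71, unadjusted p = 0.0119, adjusted p = 0.734, edgeR), which was -1.15 without ATV:BACE1 replicate 5. Apoe there was at 1381, 1188 and 1106 CPM, with a log2 change of 0.33 (SE 0.19, interval -0.05 to 0.71), and Tyrobp at 128, 91.4 and 112 CPM with a change of 0.76 (SE 0.45). Both were higher than the same-numbered control in each pair. The log2 ratios of Apoe were 0.01, 0.80 and 0.15. Those of Tyrobp were 0.20 and 0.53 for numbers 1 and 5, with 9 against 2 UMIs in number 4. For Malat1 ASO against ATV:BACE1, where 0.0105% of genes were called, F13a1 read 42.3 and 195 CPM against 0, 8.99 and 93.2. F13a1 reached the minimum only through Malat1 ASO, which held 28 of its 44 microglial UMIs against 16 in the other groups together, so its log2 change of 2.08 (SE 0.73) is given with no test. It includes the 3 nuclei that gave 18 UMIs in replicate 5, and leaving out each library moved it between 1.47 (without ATV:BACE1 replicate 4) and 5.00 (without ATV:BACE1 replicate 5). Cd163 gave 2 and 2 UMIs in Malat1 ASO and 0, 1 and 0 in the control, too few for a test. DESeq2 called no member in either comparison.

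Set directly against each other, OTV:Malat1 and nonTV:Malat1 microglia also gave 0 called members (0.126% of genes called). Apoe read 982, 941 and 1021 CPM in OTV:Malat1 and 1381, 1188 and 1106 CPM in nonTV:Malat1, so that OTV:Malat1 was lower in 3 of 3 same-numbered pairs. Its log2 change of -0.37 (SE 0.19, interval -0.75 to 0.0034, adjusted p = 0.999, edgeR) did not pass, nor did that of Mrc1 at 1.46 (SE 0.71, unadjusted p = 0.0354, adjusted p = 1.00, edgeR). OTV:Malat1 against Malat1 ASO gave 0 called members too (0.0105% of genes called). Of the members that reached the minimum without their leading group, B2m alone had an unadjusted p under 0.05 (edgeR), as had 2.93% of all genes. B2m read 116, 74.3 and 115 CPM in OTV:Malat1 (27, 6 and 9 UMIs) and 28.2 and 61.5 CPM in Malat1 ASO (6 and 6 UMIs), so that OTV:Malat1 was higher in 2 of 2 same-numbered pairs. Its log2 change of 1.41 (SE 0.50, unadjusted p = 0.00459, adjusted p = 0.999, edgeR) did not pass. The share of all genes as one-sided over the pairs was not counted, so the pair counts of Apoe and B2m are descriptions. Neither was particular to microglia. Apoe was also lower in each pair in vascular endothelium (1468, 1632 and 1672 against 1780.5, 1775 and 1841 CPM), vascular smooth muscle and leptomeningeal cells. In astrocytes it was not (2064, 2758 and 2384 against 2574, 2680 and 2830 CPM). B2m was also higher in each pair in astrocytes (23.0 and 36.6 against 16.9 and 16.3 CPM). In vascular smooth muscle it was lower (38.9 and 105 against 64.0 and 137 CPM). F13a1 was at -2.75 (SE 0.73), given with no test. F13a1 was called there without OTV:Malat1 replicate 4, but it reached the minimum only through Malat1 ASO, so that call is not read as a result. The nonTV:Malat1, OTV:Malat1 and Malat1 ASO comparisons share their control libraries.

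**Figure D3:**
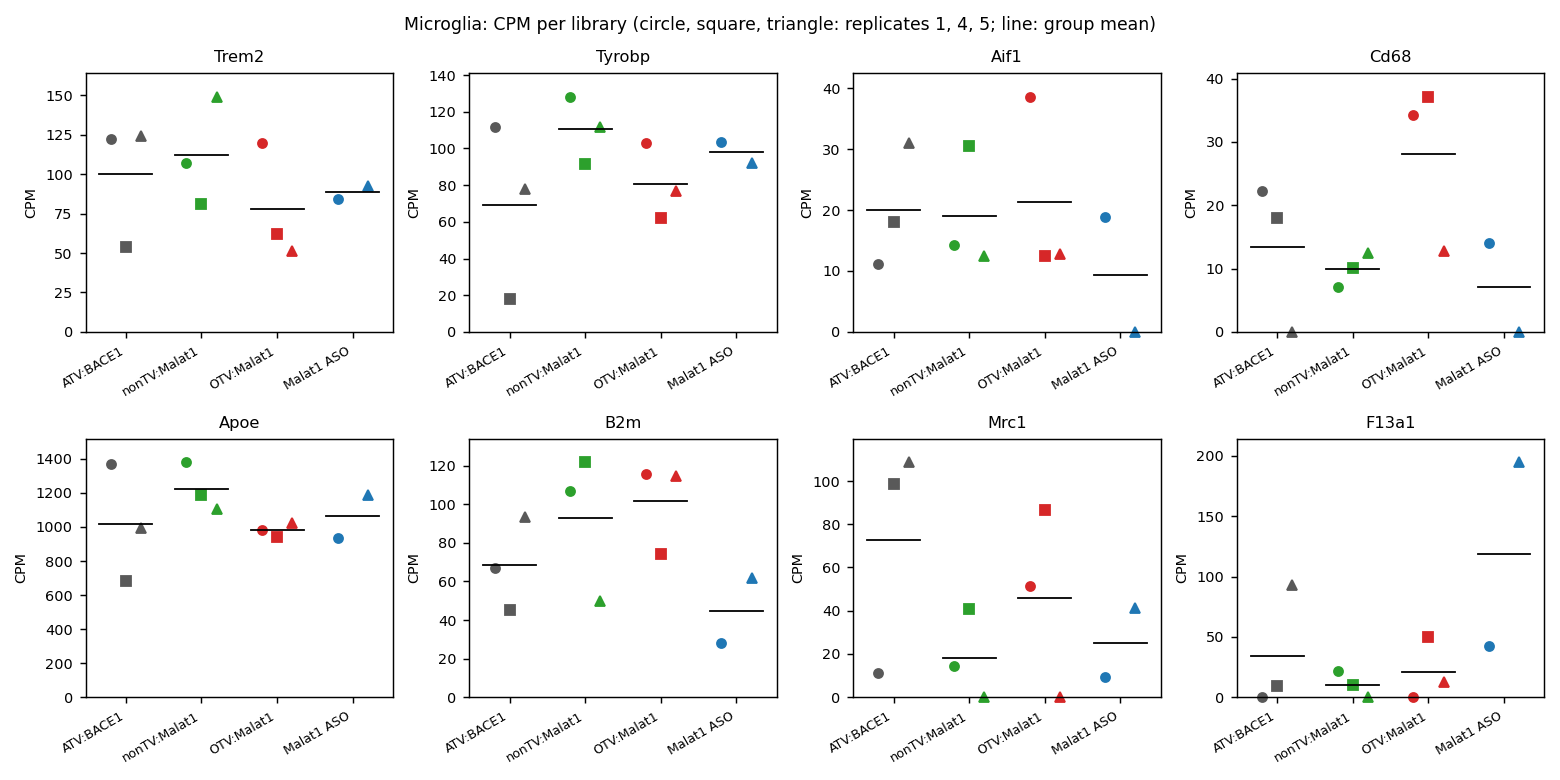
CPM of the 8 members tested in microglia, by dosing group; each point is a library (circle, square and triangle for replicates 1, 4 and 5) and the line the group mean. The OTV:Malat1 points overlap the ATV:BACE1 points for every gene shown, and Apoe lies between 941 and 1021 CPM in OTV:Malat1 against 683 to 1372 in the control.

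In perivascular macrophages 4 members had the 20 UMIs needed over the libraries. Mrc1 was at 1525, 2719 and 3681 CPM in ATV:BACE1 (18, 19 and 25 UMIs) and at 3703, 2611 and 1841 CPM in OTV:Malat1 (78, 32 and 10 UMIs). The ranges overlapped and the log2 change was 0.04 (SE 0.38, interval -0.71 to 0.78), with ratios within numbers of 1.28, -0.06 and -0.9996. F13a1 read 3642, 1860 and 3975 CPM in the control and 3988, 3589 and 3130 CPM in OTV:Malat1, for a change of 0.20 (SE 0.36, interval -0.51 to 0.90). Cd163, on 4, 4 and 3 UMIs against 7, 8 and 1, changed by -0.12 (SE 0.74, interval -1.56 to 1.32). Apoe was at 2626, 1431 and 2650 CPM in the control and 1567, 2366 and 736 CPM in OTV:Malat1; its change of -0.51 (SE 0.41) had an interval from -1.32 to 0.29. Leaving out each library moved that change between -1.10 (without OTV:Malat1 replicate 4) and -0.13 (without ATV:BACE1 replicate 5).

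No member was called in this comparison by edgeR (0 at an unadjusted p under 0.05) or DESeq2, and 0% of the 1659 genes tested were. For nonTV:Malat1 the 4 changes lay between -0.13 and -0.01 and 0 were called (0.0603% of genes). For Malat1 ASO they lay between -0.80 and 0.10 and 0 were called (0% of genes); the lowest was Mrc1, at 2360 and 988 CPM, with an interval from -1.66 to 0.06. OTV:Malat1 against nonTV:Malat1 gave 0 called (0.0603% of genes), as did OTV:Malat1 against Malat1 ASO (0.0603% of genes), where Mrc1 was at 0.83 (SE 0.43, unadjusted p = 0.0492, adjusted p = 0.994, edgeR). The other 6 members gave 4 to 17 UMIs each in this class and were not tested; Tyrobp had 8 of its 15 in OTV:Malat1 replicate 1.

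**Figure D4:**
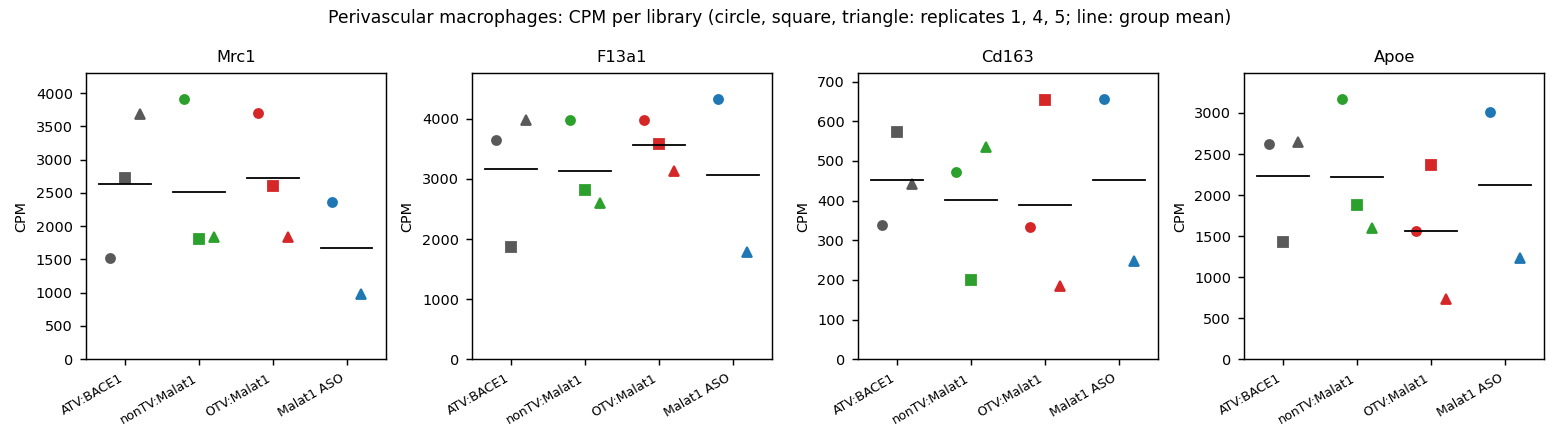
CPM of the 4 members tested in perivascular macrophages, by dosing group, with each library a point (circle, square and triangle for replicates 1, 4 and 5) and the group mean a line. Points of each dosed group overlap those of the control; Mrc1 spans 988 to 3909 CPM over the 11 libraries.

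**Figure D5:**
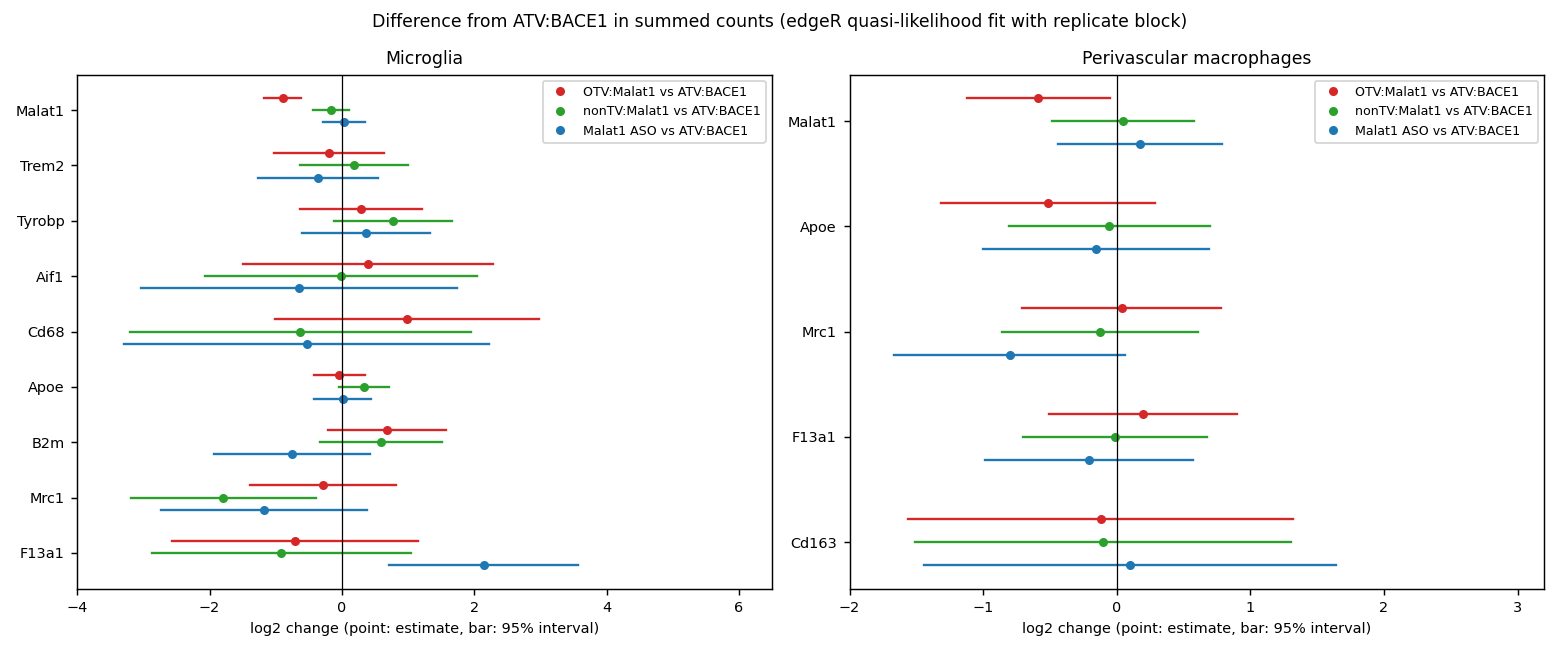
Log2 change against ATV:BACE1 for Malat1 and the tested members in microglia (left) and perivascular macrophages (right); points are the fit's changes without shrinkage, so slightly larger than those in the text, and bars are 95% intervals, not adjusted for the number of genes. The Malat1 interval for OTV:Malat1 lies below 0 in both classes. In microglia the intervals of Trem2, Tyrobp, Apoe and B2m all include 0, and that of Mrc1 for nonTV:Malat1 does not but fails the adjusted test. Aif1, Cd68 and F13a1 are drawn as a description only. Aif1 and Cd68 reached the minimum for a test only through OTV:Malat1, and F13a1 only through Malat1 ASO.

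2 further classes were tested because they lead Apoe and B2m. In astrocytes Apoe was at 3243, 2136 and 2707 CPM in the control and 2064, 2758 and 2384 CPM in OTV:Malat1, a log2 change of -0.25 (SE 0.12, interval -0.50 to 0.0024), which lay between -0.43 without ATV:BACE1 replicate 4 and -0.0534 without ATV:BACE1 replicate 1. All 10 members could be tested there and 0 were called by edgeR or DESeq2 in OTV:Malat1 (0.00589% of genes called), in nonTV:Malat1 (0%) or in Malat1 ASO (0.00589%). At an unadjusted p under 0.05 stood 0, 0 and 1 of them, the last being B2m in Malat1 ASO at -0.61 (SE 0.25). As a description, 4 were higher and 6 lower in OTV:Malat1, and 5 and 5 in nonTV:Malat1. In Malat1 ASO 1 was higher and 9 lower, with a median of -0.46 beside -0.02 over all genes. Members other than Apoe and B2m gave 32 to 111 UMIs each in all 12720 astrocytes, so these directions rest on few counts. In vascular endothelium B2m was at 309, 350 and 344 CPM in the control and 346, 281 and 379 CPM in OTV:Malat1, a change of -0.03 (SE 0.24, interval -0.51 to 0.45), and Apoe changed by -0.08 (SE 0.17). Neither was called by edgeR or DESeq2 in OTV:Malat1 (0.0522% of genes called), nonTV:Malat1 (0%) or Malat1 ASO (0.157%), and 0 had an unadjusted p under 0.05.

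Genes that work with the members were taken as 7 lists. Some hold members themselves: Trem2 is in the lipid list, and Mrc1, F13a1 and Cd163 are in the border macrophage list. The medians of those lists therefore partly repeat the member results. In microglia, for OTV:Malat1 against ATV:BACE1, 0 list genes passed the test in either direction, where 0.0421% of all genes did. Among those tested, Bcl10, Csf1, Lipa, F13a1, Tap2, Tapbp and Psmb9 reached the minimum only through 1 dosing group, so the medians below are descriptions. Of the Trem2 and Tyrobp signalling list 10 of 12 were tested, 5 higher and 5 lower, with Syk, the kinase that Tyrobp recruits, at 0.85 (SE 0.36) and Plcg2, the phospholipase downstream of it, at -0.61 (SE 0.28). Of 20 genes of the disease-associated microglia list 19 were among the symbols and 8 were tested, with a median of 0.09, Timp2 at 0.45 (SE 0.43) and Ctsl at 0.43 (SE 0.48). The lipid list (7 of 12 tested, median 0.17) had Abca1, a cholesterol exporter, at 0.58 (SE 0.30) and Lipa, the lysosomal acid lipase, at 1.61 (SE 0.98), with 15 of the 30 Lipa UMIs in OTV:Malat1. Antigen presentation genes (5 of 12 tested) had a median of -0.52, with H2-K1 at -0.80 (SE 0.73) and Psmb9 at -0.65 (SE 1.01). Lysosome and phagocytosis genes (12 of 13) had a median of 0.05, with Fcgr3 at 0.85 (SE 0.54) and Hexa at -0.58 (SE 0.45). Border macrophage genes (5 of 12) had a median of 0.15, 3 higher and 2 lower, with Stab1 at 0.74 (SE 0.39) and F13a1 at -0.66 (SE 0.94). The 12 of 12 homeostatic genes had a median of 0.04, with Selplg at 0.21 (SE 0.22) and C1qa at -0.32 (SE 0.36). The median over all 9507 genes was 0.02. The lowest unadjusted p among these list genes was 0.0170, for Syk, and every adjusted p was 1.00 by edgeR.

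In perivascular macrophages the same 7 lists also held 0 called genes in that comparison, in which 0% of the 1659 genes tested were called. The genes tested per list numbered 7, 3, 1, 0, 6, 8 and 7. The medians ranged from -0.50 for lysosome and phagocytosis genes to 0.56 for the single lipid gene tested, beside 0.05 over all genes.

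The share of nuclei in each class was compared last. In ATV:BACE1 microglia made up 0.740%, 1.01% and 0.621% of nuclei, against 1.91%, 0.888% and 0.535% in OTV:Malat1, so that OTV:Malat1 held both the higher and the lower end. The exact 95% binomial intervals were 1.66 to 2.19% in OTV:Malat1 replicate 1 and 0.592 to 0.915% in the control of that number. Malat1 ASO replicate 1 was alike, at 2.01%, and nonTV:Malat1 read 1.37%, 1.09% and 0.881%. The difference between OTV:Malat1 and ATV:BACE1 of 0.323 percentage points gave p = 0.7 in an exact two-sided permutation test (n = 3 and 3, smallest possible p 0.1), and it was -0.0779 without OTV:Malat1 replicate 1. Against the same control nonTV:Malat1 differed by 0.323 points (exact p = 0.2) and Malat1 ASO by 0.668 points (exact p = 0.4, smallest possible 0.2). Perivascular macrophages made up 0.0927 ± 0.0120% of nuclei in ATV:BACE1, 0.127 ± 0.0830% in OTV:Malat1, 0.122 ± 0.0209% in nonTV:Malat1 (SD, n = 3 each) and 0.130 ± 0.0472% in Malat1 ASO (n = 2). The exact permutation p were 0.6, 0.2 and 0.4. These tests do not use the replicate numbers. Against the same-numbered control, nonTV:Malat1 was higher in 3 of 3 pairs and Malat1 ASO in 2 of 2 for both classes, while OTV:Malat1 was higher in 1 of 3 pairs for microglia and 2 of 3 for perivascular macrophages.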

How the data were processed

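The deposited matrix holds UMI counts (whole numbers, not normalized) of 25938 gene symbols in 110304 nuclei; the submitters' processing notes name Cell Ranger 5.0.0, Seurat 4 and mm10, with no role or settings. Class names, cluster and batch numbers, doublet calls and the class prediction score, a fraction from 0 to 1, are the authors' deposited values. The deposited percent of mitochondrial UMIs was not used. The deposited totals matched the column sums in 110304 nuclei. Doublets called by the authors were kept and 0 other per-sample columns were set aside.

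Counts were summed per library and class. They were tested with edgeR 4.0.16 (glmQLFit, glmQLFTest; R 4.3.3), all 4 groups in 1 fit with replicate number as block, genes with at least 20 UMIs over the libraries, TMM (library totals in perivascular macrophages) and Benjamini-Hochberg adjustment over all genes at 0.05. Libraries needed 20 nuclei of a class, or 5 perivascular macrophages. The code was tested on simulated data. Replicate numbers coincide with the deposited batch. Same-numbered libraries deviated from their group means together in microglia (median r 0.24 over 15 pairs, lowest 0.10, 3140 genes). In perivascular macrophages the lowest r was -0.15 (105 genes). The 30 other pairs in microglia had a median of -0.13. Deviations from a group mean sum to 0, so that value is not separate evidence. An SE is the fit's log2 change without shrinkage divided by the square root of F, and intervals are not adjusted for the number of genes. Levels and tests were run with Python 3.11.15, scipy 1.17.1 and numpy 2.4.6, and binomial intervals are exact (Clopper-Pearson) and cover counting error only. Alternatives were DESeq2 1.42.0, no block, other normalization and filters, Malat1, doublets or low prediction scores left out, and each library left out. Named were the 10 members, Malat1, the 2 genes of lowest p per list, up to 5 other called genes per comparison, and the 3 genes most like Trem2, Apoe, B2m and Mrc1; Gad1 and Gad2 were added after their values were seen. The members and lists were chosen with earlier results of these data known.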

Additional observations from a re-analysis of the deposited data

How the results depend on the processing

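Few nuclei set the depth: 60 to 202 microglia and 5 to 21 perivascular macrophages per library, and 22 to 124 UMIs in all microglia for each tested member other than Apoe. In microglia the intervals of those members for OTV:Malat1 against ATV:BACE1 included 2-fold changes in at least 1 direction, while that of Apoe did not. The labels do not say whether each library is a separate mouse, so p-values measure the spread between these libraries; batch cannot be told apart from the sex and age of its mice. Over 309 settings of the 16 comparisons the count of called members moved in 1: leaving out each library gave 0 to 1 in microglia for OTV:Malat1 against Malat1 ASO, the 1 being F13a1 without OTV:Malat1 replicate 4, a gene that reached the minimum only through Malat1 ASO.

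Without the replicate block 0 members were called in each of the 16 comparisons. There the Malat1 change in OTV:Malat1 microglia was -0.91 with an adjusted p of 0.665 (edgeR), its range when leaving out each library with the block being -1.02 to -0.84. Over all genes in microglia the calls for OTV:Malat1 against ATV:BACE1 went from 4 to 0 without the block and to 1 with DESeq2, and those for nonTV:Malat1 from 18 to 0 and 0; which genes were shared was not compared.

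Of 228 settings of 12 log2 changes, 12 had the other sign, 10 of them when a library was left out, and none of those changes was called. For OTV:Malat1 against ATV:BACE1, leaving out each library gave -0.25 to 0.19 for Apoe, -0.76 to 0.0877 for Trem2 and -0.0786 to 0.73 for Tyrobp in microglia. In perivascular macrophages it gave -0.60 to 0.60 for Mrc1 and -0.0802 to 0.55 for F13a1, and for B2m in vascular endothelium -0.13 to 0.11. B2m there was 0.021 with library totals in place of TMM and 0.0080 with prediction scores of at least 0.5. Leaving out each library, the difference in the share of nuclei (percentage points) was -0.0779 to 0.611 for microglia and -0.0018 to 0.080 for perivascular macrophages. Without a filter for genes, with filterByExpr, without called doublets and without Malat1, no member was called in any comparison. The filterByExpr setting tested only 4 members in microglia (Trem2, Tyrobp, Apoe and B2m), 3 in perivascular macrophages and 4 in astrocytes. The causes of these shifts were not tested.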
